A study of Mus musculus with 16 samples.

Results

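Caveolae are small flask-shaped pits of the plasma membrane, and 7 genes that encode their coat and the proteins at their neck were followed here: Cav1, Cav2, Cavin1, Cavin2, Cavin3, Ehd2 and Pacsin2. They were taken by symbol, and they are 7 of the 35552 symbols and 27 of the 130343 transcript rows in the expression table. RNA was sequenced from inguinal subcutaneous adipose tissue (SAT) and mesenteric visceral adipose tissue (VAT) of male wild-type C57BL/6J mice. The 4 obese mice ate a high-fat diet with 42% of its energy from fat and 0.2% cholesterol, begun at 10 weeks of age and kept up for 12 to 14 months, and the 4 lean mice ate a normal laboratory diet over the same period. Each mouse gave 1 library of each tissue, so that there were 4 groups of 4 libraries (SAT lean, SAT obese, VAT lean and VAT obese) and 16 libraries in all. No transgene or targeted deletion is named for any group.

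Caveolins are hairpin proteins that insert into the inner leaflet of the membrane and assemble into oligomers, with Cav1 as the caveolin needed to form the pit outside muscle and Cav2 as its partner. Cavins are cytosolic coat proteins recruited to the caveolin scaffold. Cavin1 is required for caveolae to form, Cavin2 shapes the membrane, and Cavin3 links caveolae to signalling and traffic. Ehd2 is an ATPase at the caveolar neck that holds the pit at the surface, and Pacsin2 is an F-BAR protein that bends the membrane there. Adipocytes are among the cell types richest in caveolae, which flatten when the membrane is stretched and take part in fatty acid uptake and insulin signalling. Endothelial cells, smooth muscle cells and fibroblasts carry caveolae as well.

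In GRCm39, by the GENCODE annotation, Cav2 and Cav1 lie beside each other on the plus strand of chromosome 6. Cav2 spans 17281026 to 17289877 and Cav1 spans 17306140 to 17341451, with 16262 bases between them. Cavin1 lies on chromosome 11 from 100847559 to 100861713 (minus strand) and Cavin2 on chromosome 1 from 51328266 to 51345710 (plus strand). On the minus strand of chromosome 7 lie Cavin3, from 105128391 to 105131507, and Ehd2, from 15680874 to 15701629. Pacsin2 lies on chromosome 15 from 83258424 to 83348819 (minus strand).

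The 250 bases before the RefSeq starts of some of these genes are shown, from 5′ to 3′ on the strand of the gene. The build is the older GRCm38.p6 of that table. The neighbours Cav2 and Cav1 and the coat and neck genes Cavin1, Cavin2 and Ehd2 were chosen after their levels were seen. Whether these bases bear on the levels was not tested. Cav1 and Cavin1 each have a pair of starts in that table. Those of Cavin1 lie 2 bases apart, and 1 of its windows is shown. Which transcript row of Cav1 begins at which start was not analysed here. Cavin3 has no window printed, and the 3 windows of Pacsin2 are not shown. Capitals mark matches on either strand to the CCAAT box and to the GC box, the latter spelled GGGCGG.
Cav1, first start, chr6:17306085-17306334, plus strand: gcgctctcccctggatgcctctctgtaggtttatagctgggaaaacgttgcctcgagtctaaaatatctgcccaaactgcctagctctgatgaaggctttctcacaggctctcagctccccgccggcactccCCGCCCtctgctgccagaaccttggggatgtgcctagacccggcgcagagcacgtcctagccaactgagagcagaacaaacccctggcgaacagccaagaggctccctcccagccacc
Cav1, second start, chr6:17307390-17307639, plus strand: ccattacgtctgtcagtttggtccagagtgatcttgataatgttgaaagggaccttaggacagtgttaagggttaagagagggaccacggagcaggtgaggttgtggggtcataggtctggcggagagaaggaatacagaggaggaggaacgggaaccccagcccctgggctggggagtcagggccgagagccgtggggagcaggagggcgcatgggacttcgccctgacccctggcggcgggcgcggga
Cav2, chr6:17280935-17281184, plus strand: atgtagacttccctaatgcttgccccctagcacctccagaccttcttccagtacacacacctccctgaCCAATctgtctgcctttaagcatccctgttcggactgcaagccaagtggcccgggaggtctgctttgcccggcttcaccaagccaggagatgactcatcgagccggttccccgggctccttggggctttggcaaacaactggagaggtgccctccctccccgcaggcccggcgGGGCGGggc
Cavin1, chr11:100970618-100970867, minus strand: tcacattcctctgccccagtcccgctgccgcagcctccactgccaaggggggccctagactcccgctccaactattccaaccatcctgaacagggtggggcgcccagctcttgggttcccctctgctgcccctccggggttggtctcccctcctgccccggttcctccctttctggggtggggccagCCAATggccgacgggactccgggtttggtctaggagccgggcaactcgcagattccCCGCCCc
Cavin2, chr1:51288876-51289125, plus strand: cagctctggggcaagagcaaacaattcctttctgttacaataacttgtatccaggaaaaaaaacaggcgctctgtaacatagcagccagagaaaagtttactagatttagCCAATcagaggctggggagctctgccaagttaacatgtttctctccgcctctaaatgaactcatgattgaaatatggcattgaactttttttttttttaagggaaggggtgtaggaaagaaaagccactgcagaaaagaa
Ehd2, chr7:15967536-15967785, minus strand: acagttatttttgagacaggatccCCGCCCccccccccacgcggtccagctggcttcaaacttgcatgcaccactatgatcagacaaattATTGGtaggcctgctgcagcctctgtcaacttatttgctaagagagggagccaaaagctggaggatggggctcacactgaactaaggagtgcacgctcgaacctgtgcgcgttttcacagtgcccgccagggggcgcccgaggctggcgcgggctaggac

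A CCAAT match stood in the windows of Cav2, Cavin1, Cavin2 and Ehd2, and in 33.8% of the 32851 windows of this length in the table. A GGGCGG match stood in the first Cav1 window and in those of Cav2, Cavin1 and Ehd2, against 32.7% of all windows. The letters TATAAA were found once, in the first Cav1 window (12.4% of all windows), and GGAATG once, in the Cavin1 window (12.6%). No window shown held CACGTG, which 6.02% of all windows hold. The second Cav1 window held none of these letters. G and C made up 40.4% of the Cavin2 window and between 58% and 67.6% of the others. These are matches of letters, and binding was not measured.

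Library totals ranged from 1256082 counts (VAT lean 1) to 16614407 (SAT obese 3), and the second lowest was VAT obese 1, with 2247737. Levels below are CPM, the read counts scaled to a common library total, summed over the rows of a gene and scaled by TMM factors, which correct for differences in library composition, and are given as mean ± SD of 4 mice. All 8 adipocyte marker genes were detected in each group, with summed levels between 15158.7 and 58007.9 CPM in single libraries, and markers of the mesothelium, which covers visceral fat, summed to 0.166 to 1.41 CPM in SAT and 246 to 595 CPM in VAT.

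Depth was ample for 6 of the 7 genes, which had between 292 and 52337 counts in each library. Over the 16 libraries Cavin1 held 495761 counts, Cav2 276262, Cavin2 267556, Ehd2 47239, Cavin3 42037 and Cav1 30708. Pacsin2 held 59 counts in all, with 0 to 10 in a library, and failed the filter of more than 1 CPM in at least 3 libraries. Reads were counted on transcripts, and 10 of the 14 Pacsin2 rows stood at 0 counts. Its level of 0.35 ± 0.235 CPM in SAT lean, 0.331 ± 0.192 in SAT obese, 0.635 ± 0.322 in VAT lean and 0.175 ± 0.153 in VAT obese is therefore not read as low expression. Pacsin2, and Cav1 with its 5 overlapping rows, may have lost reads shared by transcripts, which was not tested. How such reads were treated is not given in the sources used here.

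Per kilobase of the median transcript length, Cavin1 had the highest level in every group, from 1249 ± 149 CPM per kb in SAT lean to 782 ± 68.6 in VAT obese. In SAT lean Cav2 followed with 717.5 ± 24.7 CPM per kb, then Cavin2 with 549 ± 53.2, Cavin3 with 218 ± 63.1, Ehd2 with 87.3 ± 9.43 and Cav1 with 76.4 ± 6.52. The single libraries of Ehd2 and Cav1 overlapped in SAT lean on this scale. Since Cav1 may be undercounted, its last place is not read as the lowest expression. In VAT Cavin2 stood above Cav2, with 556 ± 43.1 against 416 ± 39.2 CPM per kb in lean mice. That order turned when the longest transcript was used as length, at 259 CPM per kb for Cavin2 against 402 for Cav2.

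**Figure D1:**
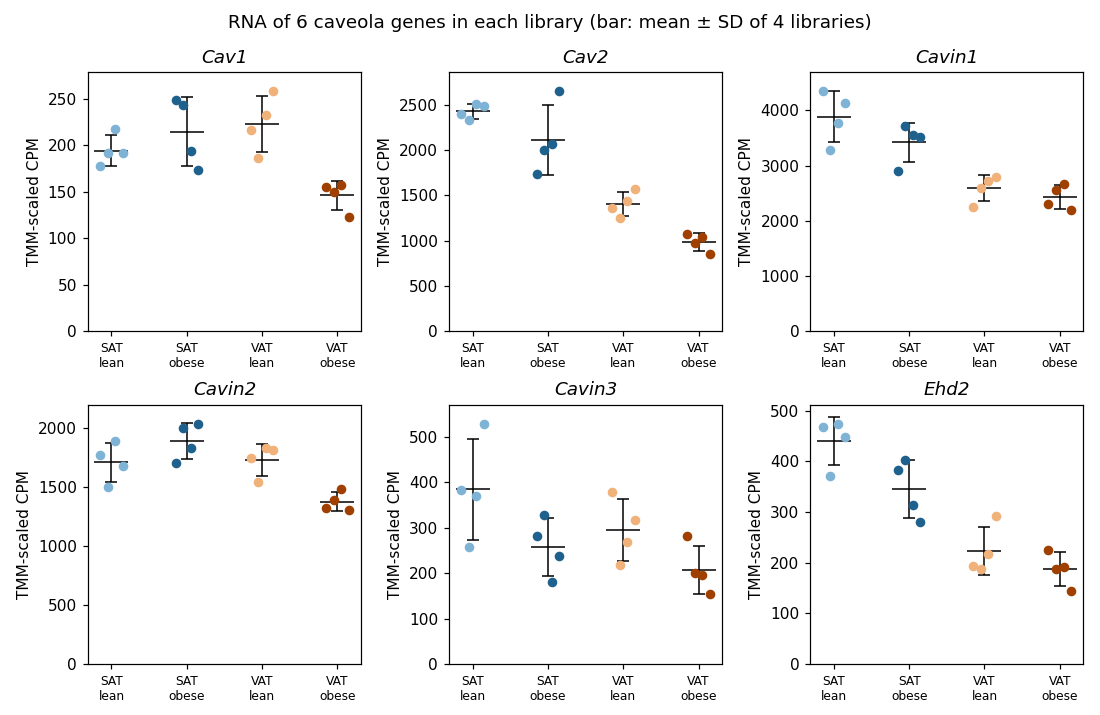
TMM-scaled CPM (linear axes from 0) of 6 caveola genes in each of the 16 libraries, by group. Points are libraries, and the bar and whiskers give the mean and SD of 4 libraries. Cav1, Cav2 and Cavin2 have all 4 VAT obese points below the 4 VAT lean points.

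The first question was how the long high-fat diet changed these genes within each fat depot. In SAT none of the 6 tested genes was called, that is, none had an adjusted p below 0.05 in edgeR's quasi-likelihood F-test over 12186 features (background: 11.6% of all features called). DESeq2 and limma voom called 0 of 6 as well. An unadjusted p below 0.05 was found for 2 of 6, Cavin3 and Ehd2, where the background is 26%. The median log2 fold change of the 6 was −0.19, against −0.00024 over all features.

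In VAT 3 of 6 genes fell in obese mice, Cav1, Cav2 and Cavin2, and no gene rose. The background of calls in VAT was 12.2% of all features, and 5.28% for lower ones. These 3 were also the genes whose obese libraries all lay below the lean ones, as for 6.28% of all features. The median log2 fold change of the 6 was −0.42, against −0.016 over all features, and 0 of 6 were called with a change beyond 1.5 on the log2 scale (background 3.22%).

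Cav1, the structural caveolin, had 178, 191, 217 and 192 CPM in the 4 SAT lean libraries and 249, 243, 194 and 173 CPM in the 4 SAT obese ones. In VAT it had 216, 186, 232 and 258 CPM in lean mice and 155, 150, 158 and 123 CPM in obese mice. The SAT groups overlapped, while every VAT obese library lay below every other library of the series. The VAT mean was 223 ± 30.4 CPM in lean and 146.5 ± 15.8 CPM in obese mice. The log2 fold change was −0.61 (SE 0.13, edgeR adjusted p = 0.00360), or 0.655 of the lean level. In SAT the means were 194 ± 16.6 and 215 ± 37.4 CPM, with a log2 fold change of 0.14 (SE 0.13, 95% interval −0.11 to 0.40, edgeR adjusted p = 0.533).

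Cav2, the caveolin that pairs with Cav1, had 2392, 2327, 2502 and 2490 CPM in SAT lean and 1739, 1995, 2066 and 2650 CPM in SAT obese. Its VAT levels were 1364, 1253, 1441 and 1568 CPM in lean mice and 1077, 969, 1042 and 852 CPM in obese mice. The SAT obese libraries spread around the narrow lean group, because obese replicate 4 was the highest of all 16. The VAT groups did not overlap, and their difference was −0.51 on the log2 scale (SE 0.12, edgeR adjusted p = 0.00614). In SAT the log2 fold change was −0.20 (SE 0.12, 95% interval −0.43 to 0.03, edgeR adjusted p = 0.301).

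Cavin2, the membrane-shaping cavin, had 1771, 1494, 1884 and 1671 CPM in SAT lean and 1697, 1994, 1828 and 2031 CPM in SAT obese. In VAT it had 1739, 1536, 1830 and 1807 CPM in lean mice and 1323, 1389, 1478 and 1300 CPM in obese mice. All VAT obese libraries lay below the lean ones, by a smaller step on the log2 scale than for Cav1. The VAT log2 fold change was −0.33 (SE 0.10, edgeR adjusted p = 0.0351), and 13 of 18 alternative settings did not call it (adjusted p from 0.0135 to 0.179, log2 fold change −0.36 to −0.27). In SAT its log2 fold change was 0.15 (SE 0.10, 95% interval −0.05 to 0.35, edgeR adjusted p = 0.391).

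Cavin1, the cavin required for caveolae, gave no call for diet in either tissue. It had 4349, 3291, 3770 and 4131 CPM in SAT lean and 2910, 3712, 3561 and 3512 CPM in SAT obese. In VAT the lean libraries had 2253, 2600, 2727 and 2787 CPM and the obese ones 2312, 2556, 2664 and 2201 CPM. The VAT groups covered nearly the same range, with a log2 fold change of −0.09 (SE 0.11, 95% interval −0.31 to 0.13, edgeR adjusted p = 0.688). In SAT the log2 fold change was −0.18 (SE 0.11, 95% interval −0.40 to 0.04, edgeR adjusted p = 0.328).

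Cavin3 was the most variable of the 6 within groups. Its levels were 382, 257, 369 and 528 CPM in SAT lean and 283, 329, 180 and 238 CPM in SAT obese. They were 378, 217, 269 and 316 CPM in VAT lean and 281, 199.6, 195 and 155 CPM in VAT obese. In both tissues the obese mean was lower while the groups overlapped. The log2 fold changes were −0.58 in SAT (SE 0.21, edgeR adjusted p = 0.0818) and −0.51 in VAT (SE 0.21, edgeR adjusted p = 0.139). The SAT difference of Cavin3 was called in 3 of 18 alternatives, without lean replicate 2 (−0.74, edgeR adjusted p = 0.0251), without the 2 shallowest libraries (−0.58, adjusted p = 0.0493) and with no filter on low counts (−0.53, adjusted p = 0.00709), and over all of them it lay between −0.74 and −0.40 (adjusted p up to 0.253). The VAT difference was called in 1 of 18, with no filter (−0.52, adjusted p = 0.00987), and lay between −0.65 and −0.37 (adjusted p up to 0.411).

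Ehd2, the ATPase of the caveolar neck, had 468, 371, 474 and 449 CPM in SAT lean and 384, 403, 315 and 280 CPM in SAT obese. Its VAT levels were 194, 188, 217 and 292 CPM in lean mice and 225, 188, 192 and 144 CPM in obese mice. The groups overlapped in both tissues. The log2 fold changes for diet were −0.35 in SAT (SE 0.15, edgeR adjusted p = 0.143) and −0.26 in VAT (SE 0.15, edgeR adjusted p = 0.325).

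In bulk tissue, fewer cells of a type and less RNA per cell cannot be told apart. In VAT of obese mice the 8 adipocyte markers summed to 15159 to 25374 CPM against 21773 to 34551 CPM in lean mice, and Adipoq, Plin1 and Lipe, 3 of the 8, fell at an adjusted p below 0.05 (edgeR). The macrophage list rose in the same libraries from 2209 to 2900 CPM up to 4647 to 7670 CPM, with 6 of 7 tested genes called higher. Of the 8 tested endothelial genes 0 were called for diet in VAT by edgeR, and 0 had an unadjusted p below 0.05 (background 24.8%). Their summed level was 289 to 395 CPM in lean and 304 to 396 CPM in obese mice. Pecam1, a defining endothelial gene, is listed at 0 counts in all libraries. In SAT, 4 of 7 macrophage genes rose and none of the 8 adipocyte genes was called. Of the 8 endothelial genes 7 had a higher level in SAT of obese mice (median log2 fold change 0.44), and 1 was called, Vwf, the von Willebrand factor (1.63, SE 0.25, edgeR adjusted p = 1.62e-04), with list sums of 247 to 482 CPM in lean and 370 to 581 CPM in obese mice. Of the 5 tested smooth muscle and pericyte genes 1, Cspg4, was called higher in SAT (0.91, SE 0.28, edgeR adjusted p = 0.0380) and 0 in VAT, where 2 had an unadjusted p below 0.05.

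For diet, 11.6% of all features were called in SAT and 12.2% in VAT, and 26% and 24.8% had an unadjusted p below 0.05. Of the fibroblast and progenitor genes, from cells that carry caveolae too, 0 of 6 were called for diet by edgeR in either tissue, with an unadjusted p below 0.05 for 0 in SAT and 1 in VAT. The brown and beige adipocyte list summed to 31.1 to 92.1 CPM in SAT lean and 13.6 to 20.2 CPM in SAT obese, and to 32.2 to 74.5 CPM in VAT lean and 27 to 35 CPM in VAT obese. All 3 of its tested genes were called in both tissues, with Cidea and Dio2 lower and Ucp1, the uncoupling protein of brown fat, higher in obese mice. The mesothelial sum in VAT was 465 ± 154 CPM in lean and 316 ± 29.3 CPM in obese mice, with 0 of 5 tested genes called by edgeR and 2 at an unadjusted p below 0.05. In VAT of obese mice 2 of 4 B cell genes and 2 of 3 tested T cell genes rose, while in SAT edgeR called 0 of each, with an unadjusted p below 0.05 for 0 and 2. The exocrine pancreas list summed to 71.3 to 144 CPM in SAT lean and 162 to 209 CPM in SAT obese. In VAT it summed to 40.6 to 60 CPM in lean and 80.7 to 89.5 CPM in obese mice. Of its 3 tested genes 1, Cela1, was called higher in both tissues by edgeR. The part of these shifts and of those above in the values of the caveola genes was not tested.

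**Figure D2:**
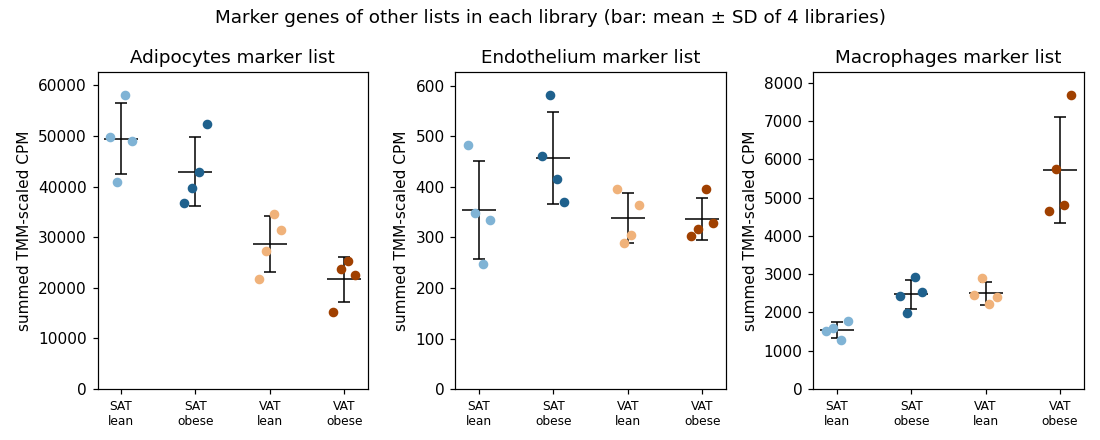
Summed TMM-scaled CPM (linear axes from 0) of the adipocyte, endothelial and macrophage marker lists in each library, by group, with the mean and SD of 4 libraries. All 4 VAT obese libraries lie at 4647 CPM or more for the macrophage list, above all other libraries, while the adipocyte sums of VAT lean and VAT obese overlap.

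Whether the diet response differed between the depots was tested as the VAT log2 fold change minus the SAT one, with the mouse as a block. It was called for 1 of 6 genes, Cav1, where the background is 2.47%. The difference for Cav1 was −0.73 (SE 0.15, edgeR adjusted p = 0.0110). It was no longer called without lean replicate 3 (−0.73, adjusted p = 0.0524) or without lean replicate 4 (−0.61, adjusted p = 0.0719), and was called in the other 15 of 17 alternatives, among them the fit without the 2 shallowest libraries (−0.66, edgeR adjusted p = 0.0420). For Cavin2 the difference was −0.48 (SE 0.13, edgeR adjusted p = 0.0538), and DESeq2, edgeR with legacy=FALSE and limma voom called it (adjusted p = 0.0187, 0.0407 and 0.0250). For Cav2 it was −0.30 (SE 0.16, 95% interval −0.62 to 0.03), for Cavin1 0.09 (−0.20 to 0.38), for Cavin3 0.06 (−0.32 to 0.43) and for Ehd2 0.11 (−0.20 to 0.41), and none of these 4 was called under any alternative. The falls of Cav2 and Cavin2 in VAT are therefore not shown to differ from their values in SAT, Cavin2 depending on the tool.

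**Figure D3:**
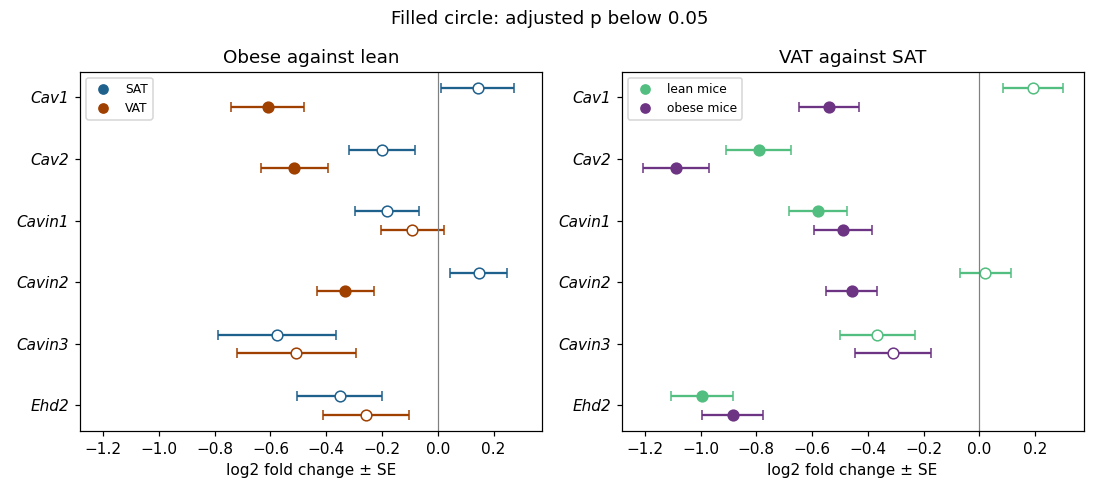
Log2 fold changes ± SE (edgeR) of 6 caveola genes for obese against lean mice in each tissue (left) and for VAT against SAT in mice of each diet (right). Filled circles have an adjusted p below 0.05. In the left panel Cav1, Cav2 and Cavin2 are filled in VAT and no circle is filled in SAT. In the right panel Cav2, Cavin1 and Ehd2 are filled in both diets, and Cav1 and Cavin2 in obese mice.

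The second question was how the depots differed within mice, and these comparisons use the same libraries as those for diet. In lean mice 3 of 6 genes were lower in VAT than in SAT, Cav2, Cavin1 and Ehd2, and none was higher. The background was 15.9% of all features called and 7.22% called lower. In obese mice 5 of 6 were lower in VAT, all except Cavin3, where the background was 31.4% called and 15.1% called lower. Each call held in all 4 mice of its diet, and the 4 VAT libraries lay below the 4 SAT ones, as for 8.87% of all features in lean mice and 15.1% in obese mice. The median log2 fold change of the 6 genes was −0.47 in lean and −0.52 in obese mice, against 0.023 and 0.021 over all features.

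Ehd2 had the largest step on the log2 scale in lean mice, from 440 ± 47.6 CPM in SAT to 223 ± 47.5 CPM in VAT. Its log2 fold change was −0.99 (SE 0.11, edgeR adjusted p = 1.51e-06) in lean mice and −0.89 (SE 0.11, edgeR adjusted p = 3.62e-06) in obese mice, so that VAT held 0.502 and 0.541 of the SAT level. For Cav2 the means were 2428 ± 83.7 CPM in SAT lean, 2112 ± 385 in SAT obese, 1406 ± 133 in VAT lean and 985 ± 99.6 in VAT obese. All 8 VAT libraries lay below all 8 SAT libraries for Cav2, and its log2 fold change was −0.79 (SE 0.12, edgeR adjusted p = 5.12e-05) in lean mice and −1.09 (SE 0.12, edgeR adjusted p = 6.03e-07) in obese mice. Cavin1 went from 3885 ± 463 to 2592 ± 239 CPM in lean mice (−0.58, SE 0.10, edgeR adjusted p = 4.40e-04) and from 3424 ± 353 to 2433 ± 214 CPM in obese mice (−0.49, SE 0.10, edgeR adjusted p = 0.00105). These 3 genes were called in both diets under each alternative.

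Cav1 and Cavin2 differed between the depots in obese mice. In these mice Cav1 stood at 215 ± 37.4 CPM in SAT against 146.5 ± 15.8 CPM in VAT, and its log2 fold change was −0.54 (SE 0.11, edgeR adjusted p = 5.89e-04). In lean mice it was 0.19 (SE 0.11, 95% interval −0.02 to 0.40, edgeR adjusted p = 0.264), with VAT the lower tissue in 1 of 4 mice. Cavin2 had 1888 ± 155 CPM in SAT and 1373 ± 79.5 CPM in VAT of obese mice (−0.46, SE 0.09, edgeR adjusted p = 6.76e-04). In lean mice its levels were 1705 ± 165 and 1728 ± 134 CPM, with a log2 fold change of 0.02 (SE 0.09, 95% interval −0.16 to 0.20, edgeR adjusted p = 0.913). The test of the difference between diets in this depot contrast is the one given above for the diet response, and it was called for Cav1.

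Cavin3 was lower in VAT in 4 of 4 lean mice and 3 of 4 obese mice. Its log2 fold changes, −0.37 (SE 0.14, edgeR adjusted p = 0.0740) and −0.31 (SE 0.14, edgeR adjusted p = 0.0895), did not pass the threshold. The lean value passed without the 2 shallowest libraries (−0.48, edgeR adjusted p = 0.0345), without lean replicate 1 (−0.48, adjusted p = 0.0391) and without obese replicate 3 (−0.37, adjusted p = 0.0483), which shares the estimate of spread. The obese value passed without the 2 shallowest libraries (−0.41, adjusted p = 0.0388) and without obese replicate 3 (−0.43, adjusted p = 0.0354).

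Beside the depot contrast, 2 of 8 adipocyte markers (Fabp4 and Lep) were lower in VAT of lean mice and 6 of 8 in VAT of obese mice. The adipocyte sum was 36786 to 58008 CPM in SAT and 15159 to 34551 CPM in VAT. In lean mice this sum was carried by Fabp4 (28966 CPM in SAT and 18326 CPM in VAT) and Lep (14130.5 and 3754 CPM). Of the 8 genes 2 had a higher level in VAT of lean mice, and the median log2 fold change was −0.28. Of the macrophage genes 4 of 7 were called higher in VAT of lean mice and 7 of 7 in obese mice, and of the mesothelial genes 5 of 5 tested in both, where 15.9% of all features were called in lean and 31.4% in obese mice. Smooth muscle and pericyte markers, from cells that also carry caveolae, summed to 1479 to 2297 CPM in SAT and 972 to 1325 CPM in VAT, a sum carried by the pericyte gene Rgs5 (1483 CPM in SAT and 660 CPM in VAT of lean mice, −1.15, edgeR adjusted p = 5.66e-07). In lean mice 3 of the 5 tested genes of that list had a higher level in VAT, with a median log2 fold change of 0.30, and Cspg4 was called higher (0.90, edgeR adjusted p = 0.00285). In obese mice Rgs5 alone of the 5 was called, as lower in VAT. Of the 8 tested endothelial genes 1, Vwf, was called higher in VAT of lean mice (1.81, edgeR adjusted p = 9.77e-06), and in obese mice 1 was called higher (Egfl7) and 2 lower (Kdr and Cldn5). Of the 6 fibroblast and progenitor genes 2 were called higher in VAT (Dpp4 and Dcn) and 2 lower (Pi16 and Col1a1), in mice of both diets. The part of these shifts in the lower VAT levels of the caveola genes was not tested.

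Counts per transcript row showed a depot difference within Cav1. The row NM_001243064 held 82.3% of the Cav1 counts over all libraries, and NM_007616 held 765 counts. These rows were singled out after their values were seen. NM_007616 had 3.51%, 3.74%, 3.78% and 5.01% of the Cav1 counts in SAT lean and 2.84%, 3.27%, 3.53% and 3.22% in SAT obese. In VAT it had 0.308%, 0.673%, 1.02% and 2.84% in lean mice and 0.737%, 0.592%, 0.887% and 1.88% in obese mice. The share was lower in VAT in 8 of 8 mice, on average by −2.50 percentage points (VAT minus SAT). The lowest share rests on 1 of 325 counts, in VAT lean 1. NM_001243064 had a higher share in VAT in 8 of 8 mice, with group means of 76.4% in SAT lean, 79.1% in SAT obese, 88.5% in VAT lean and 87.2% in VAT obese. The shares of XM_006504976 and XM_006504975 were also lower in VAT in 8 of 8 mice, on average by −4.21 and −3.34 percentage points. Since the shares of all Cav1 rows add up to the whole, the rise of 1 and the fall of others are not separate observations.

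The rows were tested with the same model over 13288 rows, of which 14.8% were called between the depots in lean mice and 29.4% in obese mice. NM_007616 was lower in VAT by a log2 fold change of −1.61 in lean mice (SE 0.35, edgeR adjusted p = 0.00261) and −2.18 in obese mice (SE 0.36, edgeR adjusted p = 6.94e-05), under each alternative too. XM_006504975 was lower in VAT of lean mice by −0.78 (SE 0.19) and of obese mice by −1.0 (SE 0.19), with edgeR adjusted p of 0.00637 and 2.46e-04. The lean value of XM_006504975 was at the threshold without lean replicate 2 (−0.71, adjusted p = 0.0510). XM_006504976 was lower by −0.71 in lean mice (SE 0.19, edgeR adjusted p = 0.0129), not called without lean replicate 2 (−0.56, adjusted p = 0.128) or lean replicate 3 (−0.63, adjusted p = 0.100), and by −1.21 in obese mice (SE 0.19, edgeR adjusted p = 3.68e-05). NM_001243064 was higher in VAT of lean mice (0.39, SE 0.11, edgeR adjusted p = 0.0209) and lower in VAT of obese mice (−0.37, SE 0.11, edgeR adjusted p = 0.0166). Both of these calls were lost in some alternatives, with adjusted p up to 0.106 and 0.0777. XM_006504974, with 137 counts, was not called in any comparison. Since the rows share exons, their shares need not equal those of the transcripts themselves.

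**Figure D4:**
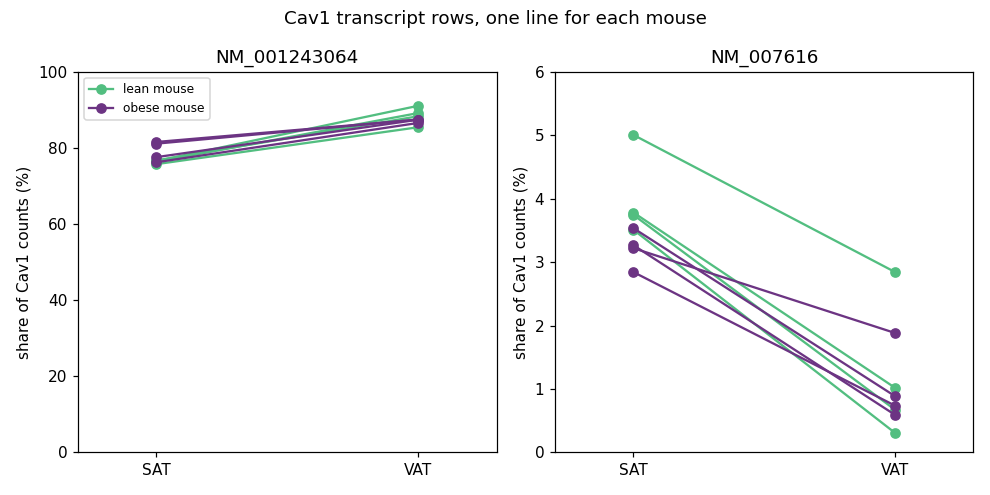
Share of the Cav1 counts (%, axes from 0) on the rows NM_001243064 (left) and NM_007616 (right) in SAT and VAT, one line for each of 8 mice. The line rises from SAT to VAT in all 8 mice on the left and falls in all 8 on the right.

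The minor rows of the other genes held few counts. For diet, 11% of all rows were called in SAT and 10.9% in VAT. NM_001359105, with 2616 of the Cavin1 counts, fell in VAT of obese mice from 20.01 ± 1.9 to 9.12 ± 3.22 CPM (−1.05, SE 0.20, edgeR adjusted p = 0.00122), under each alternative, although the main Cavin1 row, NM_008986, had a log2 fold change of −0.04 (SE 0.12, edgeR adjusted p = 0.873). The share of NM_001359105 in the Cavin1 counts of VAT differed by −0.41 percentage points (obese minus lean; two-sided exact permutation test, p = 0.0286, the smallest that 4 against 4 can give), which did not pass adjustment over 21 such comparisons (Benjamini-Hochberg p = 0.1). NM_001277756, with 617 of the Cav2 counts, was the only row of the 12 tested that was called in SAT (−0.79, SE 0.24, edgeR adjusted p = 0.0407). Its CPM were 5.48, 4.64, 6.4 and 4.05 in SAT lean and 2.82, 3.82, 3.28 and 2.17 in SAT obese, and it lost its call when 1 of 6 mice was left out (lean replicates 1, 2 or 3, obese replicates 1, 3 or 4; −0.84 to −0.65, adjusted p from 0.0664 to 0.146) and with no filter on low counts (−0.76, adjusted p = 0.184). In VAT the main rows of Cav1 (NM_001243064, −0.59, edgeR adjusted p = 0.00674) and Cav2 (NM_016900, −0.47, edgeR adjusted p = 0.0116) were called lower, and the 1 row of Cavin2, NM_138741, was not (−0.29, SE 0.10, edgeR adjusted p = 0.0795).

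Of the 7 paralogs of these genes, 5 could be tested. Ehd4, an EHD ATPase of endosomes, rose in SAT from 9.06 ± 1.41 to 17.7 ± 1.19 CPM (0.96, SE 0.18, edgeR adjusted p = 0.00127) and in VAT from 13.1 ± 4.34 to 19.8 ± 2.22 CPM (0.68, SE 0.19, edgeR adjusted p = 0.0178). The VAT value of Ehd4 was not called without lean replicate 2 (0.62, adjusted p = 0.0673), lean replicate 3 (0.60, adjusted p = 0.0608) or obese replicate 4 (0.68, adjusted p = 0.0508), nor with the 8 VAT libraries fitted alone (0.68, adjusted p = 0.0530). Ehd3 fell in SAT from 295 ± 84.4 to 193 ± 28.6 CPM (−0.61, SE 0.17, edgeR adjusted p = 0.0197), lost without lean replicate 1 (−0.42, adjusted p = 0.0892), lean replicate 3 (−0.59, adjusted p = 0.0513) or obese replicate 3 (−0.52, adjusted p = 0.0771). Ehd3 was also lower in VAT than in SAT of lean mice (−0.77, SE 0.14, edgeR adjusted p = 4.36e-04). Ehd1, which acts in endosomal recycling, was not called in any comparison, with 223 ± 32 CPM in SAT lean and 297 ± 58.5 CPM in SAT obese.

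Cavin4, the cavin of muscle cells, stood at low levels, with 2 to 98 counts in a library. Its CPM were 1.33, 3.1, 4.2 and 2.96 in VAT lean and 0.762, 0.807, 1.12 and 0.581 in VAT obese, against 5.35 ± 0.911 in SAT lean and 5.09 ± 1.57 in SAT obese. The VAT groups did not overlap, and the log2 fold change for diet was −1.94 in VAT (SE 0.34, edgeR adjusted p = 6.68e-04) and −0.08 in SAT (SE 0.26, edgeR adjusted p = 0.888). In obese mice Cavin4 was lower in VAT than in SAT by −2.69 (SE 0.32, edgeR adjusted p = 2.11e-06). Of the 6 skeletal muscle markers 1 passed the filter, and their sum was at most 1.91 CPM in a library. Pacsin3 was lower in VAT of obese mice (−1.53, SE 0.54, edgeR adjusted p = 0.0356) on 2 to 10 counts a library, and was not called without obese replicates 1, 2 or 4 (−1.56, −1.33 and −1.20, adjusted p = 0.0600, 0.156 and 0.190) or by DESeq2 (−1.56, adjusted p = 0.0507). Cav3, the muscle caveolin, had 0 to 8 counts a library and Pacsin1 none, and neither was tested.

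**Figure D5:**
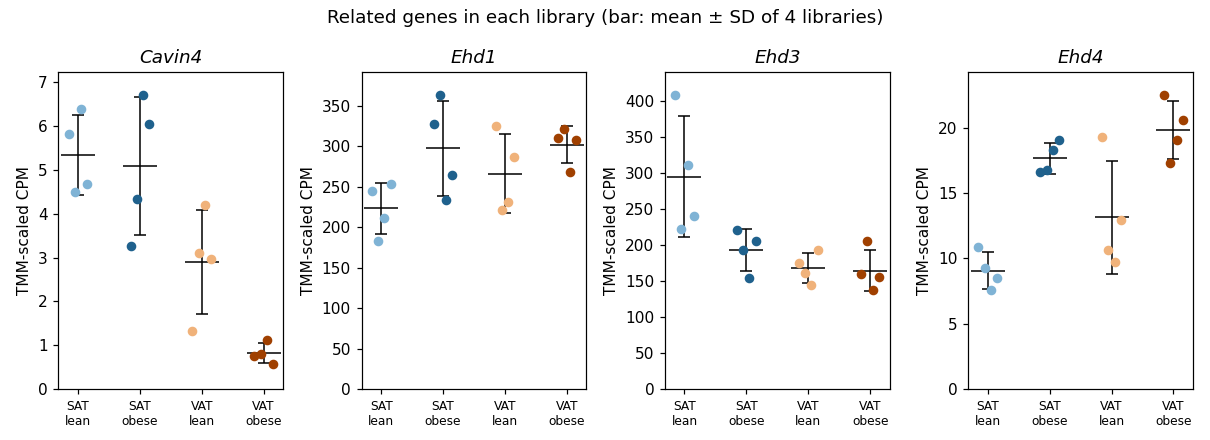
TMM-scaled CPM (linear axes from 0) of Cavin4, Ehd1, Ehd3 and Ehd4 in each library, by group, with the mean and SD of 4 libraries. The 4 Cavin4 points of VAT obese lie below all other libraries, and the 4 Ehd4 points of SAT obese lie above those of SAT lean.

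Among 16 genes whose proteins bind, regulate or reside in caveolae, 10 passed the filter. In SAT 4 of the 10 rose in obese mice and none fell, where 11.6% of all features were called. They were Cd36, the fatty acid transporter (0.54, SE 0.14), Scarb1, the HDL receptor (0.95, SE 0.22), Bmpr2, a BMP receptor (0.97, SE 0.20), and Lrp6, a Wnt co-receptor (1.01, SE 0.22), with edgeR adjusted p of 0.0151, 0.00604, 0.00302 and 0.00407. The call of Cd36 in SAT was lost without lean replicate 2 (0.50, adjusted p = 0.0663), obese replicate 3 (0.50, adjusted p = 0.0555) or obese replicate 4 (0.42, adjusted p = 0.0605). In VAT 1 of the 10 fell and none rose, a share near the 12.2% of all features called. The 1 gene was Aoc3, an amine oxidase abundant on adipocyte caveolae, which went from 1714 ± 135 to 877 ± 248 CPM (−0.97, SE 0.16, edgeR adjusted p = 4.15e-04). Between the depots edgeR called 0 of the 10 in lean mice, with an unadjusted p below 0.05 for 2 of them, Scarb1 and Lrp6 (background 28.1%). In obese mice, where 31.4% of all features were called, Cd36 (−0.85, SE 0.14), Aoc3 (−0.76, SE 0.12), Lrp6 (−0.84, SE 0.20) and Flot1, a raft scaffold protein (−0.60, SE 0.20), were lower in VAT, with edgeR adjusted p of 5.84e-05, 4.96e-05, 0.00277 and 0.0254. Flot1 was not called without obese replicate 2 (−0.33, adjusted p = 0.267) or without the mouse as a block (−0.67, adjusted p = 0.0595). Nos3, Plvap, Insr, Flna, Src and Fyn did not pass the filter, and Fyn is listed at 0 in every library. Reads were counted on transcripts, so these counts are not read as low expression, as for Pacsin2.

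The genes whose levels followed the caveola genes most closely over the 16 libraries were found among 3973 symbols with a mean of at least 10 CPM. These correlations of log2 CPM describe the libraries, which share the depot and diet groups. For Cav1 they were Plin1, which coats lipid droplets (Pearson r 0.853), Smpd1 (0.851) and Gpd1 (0.847). For Cav2 they were Zfp91 (0.977), Syap1 (0.963) and Plppr4 (0.960), and for Ehd2 Gpc4 (0.982), Syp (0.964) and Gnao1 (0.954). Cavin1 went with Ppic (0.952), Reep5 (0.943) and Rab38 (0.933), Cavin2 with Cat (0.887), Dlat (0.877) and Gm32389 (0.877), and Cavin3 with Gpt (0.907), Acads (0.905) and Nid2 (0.895). With the group means removed, Gpc4 was still the nearest to Ehd2 (0.930) and Acads the nearest to Cavin3 (0.946), while Cav1 was nearest to Ywhab (0.845), Cav2 to Kpna4 (0.928), Cavin1 to Serf1 (0.867) and Cavin2 to Coq10b (0.907).

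Among the caveola genes themselves, Cav2 and Cavin1 had the highest correlation over the 16 libraries (Pearson r 0.895), followed by Cavin1 and Ehd2 (0.890) and Cav2 and Ehd2 (0.884). Cav1 and its neighbour Cav2 had 0.496, and −0.03 once the group means were removed. Around the group means the highest value was that of Cav1 and Ehd2 (0.828). These are 15 pairs over the same libraries, given as a description.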

How the data were processed

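Per the file headers and the labels, the authors deposited 1 table with 16 columns of raw read counts and 16 columns of CPM, with RefSeq transcripts as rows (13 rows have no RefSeq transcript identifier). Poly(A) RNA was made into directional libraries and sequenced as paired ends. The submitters' processing notes name FastQC 0.11.9, Trim Galore 0.6.6, HISAT2 2.2.0, HTSeq 0.13.5 and edgeR 3.34.0, and the build GRCm39. The strand setting of the counting is not given in the sources used here. All 32 columns were read. The deposited CPM equal the counts divided by the column total.

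Symbols were matched by RefSeq identifier for 106811 rows (81.9%), and counts were summed for each symbol. edgeR 4.0.16 (R 4.3.3, TMM, quasi-likelihood F-test, legacy=TRUE) was run on the sums and, separately, on the rows, for features above 1 CPM in at least 3 of 16 libraries, with Benjamini-Hochberg adjustment over all features. A feature was called at an adjusted p below 0.05. Intervals are 95%, from the standard error. The diets were compared with a term for the group, since the mouse is nested in the diet. The depots, and the diet response between them, were compared with the mouse as a block. The tests were checked on simulated counts.

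The block follows the labels, by which 1 mouse gave both libraries of a number. Deviations from the group means correlated between −0.012 and 0.235 (median 0.110) in the 8 pairs of 1 mouse, and between −0.206 and 0.170 (median −0.052) in 24 pairs of different mice. Libraries within a group differed by more than counting noise (lowest chi-square per degree of freedom 8.75 over 24 pairs). Counting intervals cover counting error only.

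The genes, the lists and the tests were chosen with earlier results of these data known. Named are all 7 caveola genes and their rows, every paralog, the called genes of the list of caveola partners, and the 3 symbols most alike to each gene by Pearson r of log2 CPM (prior count 2). Cell type lists are given by counts and sums, except those of the intestinal epithelium and of keratinocytes, which are not given. The markers named from the lists were chosen after their values were seen. The alternatives were RLE size factors, no filter, filterByExpr, DESeq2 1.42.0, legacy=FALSE, limma voom (limma 3.58.1), transcript rows, the tissue alone, other blocks, leaving out the 2 shallowest libraries, and leaving out each mouse. Promoter windows were read from RefSeq (GRCm38.p6). Tables were made in Python 3.11.15 (numpy 2.4.6, pandas 2.3.3, scipy 1.17.1) and drawn with matplotlib 3.10.9. Body weights were not used here.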

Additional observations from a re-analysis of the deposited data

Results flagged for a closer look

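The diet response differed between VAT and SAT, by the test of the difference itself (edgeR, mouse as a block, over 12186 features), for Cav1 (VAT minus SAT log2 fold change −0.73, SE 0.15, adjusted p = 0.0110), 1 of the 6 caveola genes tested. Cav1 was not called without lean replicate 3 (−0.73, adjusted p = 0.0524) or lean replicate 4 (−0.61, adjusted p = 0.0719), and Cavin2 was called as well with DESeq2, edgeR with legacy=FALSE and limma voom (adjusted p = 0.0187, 0.0407 and 0.0250). Cav1 was lower in 4 of 4 obese VAT libraries than in any lean VAT library, while its SAT groups overlapped.

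The same test was passed by Cavin4 (−1.94, SE 0.44, adjusted p = 0.0187), on 2 to 12 counts in each obese VAT library, and was not passed without lean replicates 2, 3 or 4 or obese replicates 3 or 4 (−1.95 to −1.65, adjusted p from 0.0567 to 0.126). Aoc3 passed it (−0.82, SE 0.17, adjusted p = 0.00963) and was not called without lean replicate 4 (−0.68, adjusted p = 0.0567). Lrp6 passed it (−1.32, SE 0.29, adjusted p = 0.0162) and was not called without obese replicate 3 (−1.21, adjusted p = 0.0566) or obese replicate 4 (−1.11, adjusted p = 0.0959). Cd36 passed it (−0.76, SE 0.19, adjusted p = 0.0372) and was not called without lean replicates 2, 3 or 4 or obese replicates 3 or 4 (−0.76 to −0.54, adjusted p from 0.0719 to 0.172).

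In none of the 24 groups of 4 libraries formed by the 6 caveola genes did a single library stand apart by Dixon's test.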

How the results depend on the processing

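Of 1066 values recomputed over 67 results, 979 kept their direction and their side of the threshold (or, for counts, stayed within 1.5 times), 65 lost a call, 13 gained one, 7 changed sign and 2 moved. In SAT the number of caveola genes called for diet went from 0 to 1 with no filter on low counts, without the 2 shallowest libraries (Cavin3 both times) and with transcript rows (Cav2), and lay between 0 and 1 when each mouse was left out. The number with a different diet response in VAT and SAT went from 1 to 2 with DESeq2, legacy=FALSE and limma voom (Cav1 and Cavin2), and lay between 0 and 1 when each mouse was left out, with 0 without lean replicate 3 or lean replicate 4. In the other comparisons the numbers stayed within 1.5 times under each alternative, a bound that a change from 3 to 2 still meets. Of the 3 genes called for diet in VAT, Cav1 and Cav2 were called in 18 of 18 alternatives and Cavin2 in 5 of 18. For diet, a block by replicate number, which joins different mice, changed no call of a caveola gene, at 0 in SAT and 3 in VAT. With no replicate block 3 genes were called between the depots of lean mice, 5 in obese mice and 1 in the diet response, as with it, while 4 other calls were lost, those of Cd36 (−0.78, adjusted p = 0.0626) and Aoc3 (−0.77, adjusted p = 0.105) in the diet response, of Flot1 between the depots of obese mice (−0.67, adjusted p = 0.0595) and of the Cav1 row NM_001243064 between those of lean mice (0.40, adjusted p = 0.0558). Values that changed sign were never called. When each mouse was left out, Cavin2 between the depots of lean mice lay between −0.023 (lean replicate 4 out) and 0.038. The difference in diet response lay between −0.034 (lean replicate 1 out) and 0.21 for Cavin1, and between −0.052 (obese replicate 3 out) and 0.20 for Cavin3, which also was −0.028 with lean replicate 4 out and −0.0021 with no filter. Without the 2 shallowest libraries it was −0.085 for Cavin1 and −0.013 for Ehd2. The cause was not tested. With the longest transcript as length, 5 of 7 genes kept their place in the order of levels in VAT lean and VAT obese. Among the 7 caveola genes Pacsin2 had the fewest counts. Cav1 and Pacsin2 may be undercounted where their transcript rows overlap, which was not tested.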
